A study of Sus scrofa with 6 samples.

Results

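The genes described here encode the enzymes that attach ubiquitin to proteins and take it off again, measured in mature pig oocytes. They were taken by gene symbol: every array probe set (a group of short probes for 1 transcript) whose only symbol in the platform annotation belongs to the UBA or UBE series, the cullins with their SKP and RBX partners, the F-box proteins, the RNF and TRIM ligases, or the USP, UCH and OTU deubiquitinases. This gave 181 probe sets for 113 genes, of 10069 probe sets for 6765 genes that carry a single symbol and of 23999 probe sets in all once controls are left out. Members were picked by symbol alone, without a cut on array values, but with earlier results of these data known. Of the 181, 130 probe sets (90 genes) were bright enough to be tested and 51 were not.

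Ubiquitin is a small protein that is joined to other proteins as a tag, often for destruction by the proteasome. An E1 enzyme activates it, an E2 enzyme carries it, and an E3 ligase chooses the substrate. Deubiquitinases cut the tag off or trim its chains. In oocytes the anaphase-promoting complex, a large E3 that works with the E2 enzyme UBE2C, destroys cyclin B and securin so that chromosomes separate. The mature egg waits at metaphase II with this complex held in check, and maternal proteins are cleared through the same system after fertilization.

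The adult group was 3 arrays of oocytes from sows, which the labels call developmentally competent, and the prepubertal group was 3 arrays of oocytes from gilts, which they call incompetent. The comparison is therefore between donors of different age, and age and the labelled capacity of the egg to develop cannot be told apart. Follicles of 2 to 6 mm were the source in both groups, and maturation in culture lasted 42 to 44 h. Cumulus cells were removed with hyaluronidase and vortexing, and a first polar body was required, so that all eggs stood at metaphase II. Poly(A) RNA was captured on beads and amplified in a pair of cycles before hybridization. The labels name biological replicates without giving the number of oocytes or animals per array, so the spread that p-values measure is that between these 6 samples. Fewer cells and less poly(A) RNA per cell cannot be told apart.

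The 2% trimmed mean signal of the arrays was 142 ± 19.4 in adult and 118 ± 13.1 in prepubertal oocytes (SD, n = 3 each), with an exact permutation p of 0.2 (2-sided, smallest possible 0.1). The arrays were thus not at a common level as deposited, and each log2 difference of a single probe set below is followed by its value after quantile normalization. Among 12000 tested probe sets the median log2 difference, adult minus prepubertal, was 0.20, and it was 0.01 after quantile normalization. All 8 oocyte markers with a probe set had a mean signal over 20, and their summed signal was 30993 to 32865 in adult and 28941 to 33317 in prepubertal arrays. Most of this sum came from KPNA7 (means of 14376 in adult and 14096 in prepubertal arrays) and DNMT1 (11997 and 12046). POU5F1 averaged 216 in adult and 136 in prepubertal arrays, without overlap, and the other oocyte markers overlapped. Of 18 cumulus and granulosa markers 11 had a mean signal under 20. The 18 summed to 489 to 630 in adult and 461 to 553 in prepubertal arrays. FSHR, which defines granulosa cells, averaged 3.10 in adult and 2.80 in prepubertal arrays. LHCGR averaged 13.8 in adult and 24.5 in prepubertal arrays and HSD17B1 4.73 and 11.9, both lower in adult without overlap. PTGS2, at 3.54 in adult and 1.22 in prepubertal arrays, was higher in adult without overlap. Brighter markers included FST (128 in adult and 92.0 in prepubertal arrays, without overlap), INHBA (126 and 100) and INHA (39.7 and 41.6). Sums were 107 to 162 in adult and 76.1 to 130 in prepubertal arrays for theca and stroma, 285 to 486 in adult and 159 to 396 in prepubertal arrays for blood and immune cells, and 113 to 125 in adult and 92.0 to 130 in prepubertal arrays for endothelium. The part of these cells in the results was not tested.

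No gene of these families differed between adult and prepubertal oocytes past an adjusted p of 0.05 in the main analysis, as deposited or after quantile normalization, though 13 probe sets passed as deposited with a replicate block and 14 with array weights. With limma (a linear model fitted to log2 of the signal plus 16, with Benjamini-Hochberg adjustment over all 12000 probe sets), 0 of 130 members passed as deposited and 0 of 130 after quantile normalization. Of all tested probe sets 0.475% passed as deposited and 0.117% after quantile normalization. Log2 differences are adult minus prepubertal, given with their standard error from this fit, and folds are on the same scale. The lowest adjusted p among members was 0.104 as deposited, for UBE2O, and 0.212 after quantile normalization, for the brighter UBE2C probe set. At an unadjusted p under 0.05, 22 members were higher in adult oocytes and 1 was lower as deposited, which is 16.9% and 0.769% of members against 13.6% and 1.14% of all tested probe sets. After quantile normalization 8 were higher and 9 lower, 6.15% and 6.92% of members against 5.81% and 5.05% of all. The 3 adult arrays lay wholly above the 3 prepubertal arrays for 22 members (16.9%) and wholly below for 2 (1.54%) as deposited, against 17.1% and 1.81% of all tested probe sets. After quantile normalization these counts were 14 (10.8%) and 9 (6.92%), against 8.77% and 7.54%. The shares of members were thus close to those of all tested probe sets in both settings. With array weights, which give less weight to more variable arrays, 14 members passed as deposited (12 higher in adult, 2 lower), which is 10.8% of members against 10.5% of all tested probe sets. With the replicate number as a block 13 passed, all higher in adult, against 7.65% of all tested probe sets, and 0 passed with the block after quantile normalization. The call count also rested on prepubertal replicate 1: without it 5 members passed as deposited (FBXO11, RNF10, RNF146 and TRIM44 higher in adult, FBXO9 lower) and 2 after quantile normalization (UBA3 and FBXO9, both lower). Those are 3.85% and 1.54% of members, against 5.48% and 1.77% of all tested probe sets without that array. The unadjusted count of 23 in either direction (17.7% of members, against 14.7% of all) became 35 without that array (26.9%, against 22.5%) and 26 without adult replicate 2, against 18.2% of all. It was 12 (9.23% of members) without adult replicate 1, adult replicate 3, prepubertal replicate 2 or prepubertal replicate 3, against 8.08%, 10.9%, 9.17% and 9.07% of all tested probe sets in that order.

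**Figure D1:**
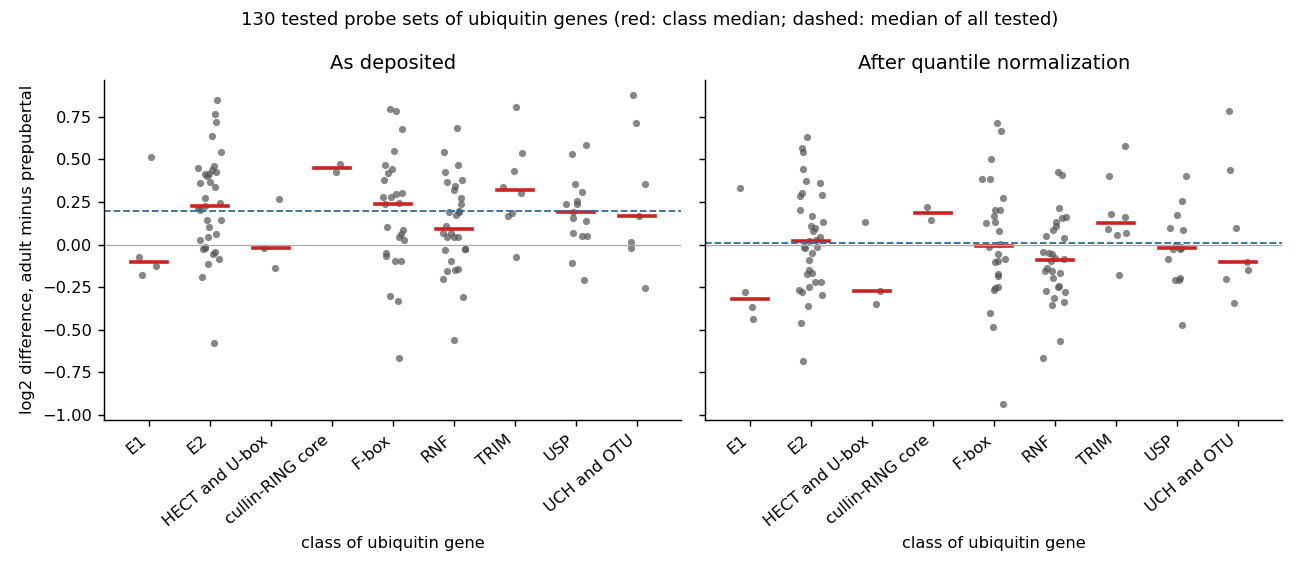
Log2 difference, adult minus prepubertal, of each tested probe set by class of ubiquitin gene, as deposited (left) and after quantile normalization (right). Red bars are class medians and the dashed line is the median of all 12000 tested probe sets. Class medians lie near that line in both panels except for E1, with 4 probe sets, and the small HECT and U-box and cullin-RING classes.

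Group medians were close to the median of all tested probe sets except for E1, while single members differed by more. As deposited, members ranged from -0.67 to 0.88 on the log2 scale with a median of 0.19, against 0.20 for all tested probe sets, and 94 of 130 were positive (72.3%, against 74.8% of all). After quantile normalization the median was -0.02, against 0.01 for all, and 60 were positive (46.2%, against 51.1%). In that step 34 members changed from positive to negative. The median was 0.23 for 35 E2 probe sets, 0.19 for 69 E3 probe sets and 0.18 for 22 deubiquitinase probe sets, and these turned to 0.02, -0.04 and -0.02 after quantile normalization. Scaling to a common trimmed mean gave -0.03, -0.05 and -0.04, beside a median of -0.02 for all tested probe sets. The 4 E1 probe sets had a median of -0.10, and of -0.32 after quantile normalization. Relative to the median of all tested probe sets, the E1 median stood 0.30 lower, the E2 median 0.03 higher and the deubiquitinase median 0.02 lower. Genes within a group are not replicates, so the groups were not tested against each other. The median spread between arrays of a group (SD of log2) was 0.28 for members and 0.28 for all tested probe sets, and the median standard error of a difference was 0.24 for members and 0.25 for all.

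Both E1 genes on the array serve relatives of ubiquitin: UBA2 is the catalytic subunit of the enzyme that activates SUMO, and UBA3 that of the enzyme that activates NEDD8, the modifier of cullins. The ubiquitin E1 itself, UBA1, was not analysed here. UBA2 had signals of 80.9, 80.4 and 128 in adult and 92.3, 94.2 and 115 in prepubertal arrays, and the groups overlapped (log2 difference -0.07 ± 0.24, quantile-normalized -0.28). The brightest UBA3 probe set read 2545, 2162 and 2608 in adult and 2141, 3026 and 3233 in prepubertal arrays. Prepubertal replicates 2 and 3 were the highest of the 6 there, and prepubertal replicate 1 was the lowest. Its log2 difference was -0.18 ± 0.18, and -0.44 once quantile normalized. A dimmer UBA3 probe set went the other way: it had 102, 84.9 and 114 in adult and 73.9, 82.6 and 43.8 in prepubertal arrays, without overlap as deposited and with overlap after quantile normalization (log2 difference 0.51 ± 0.24, quantile-normalized 0.33, limma adjusted p = 0.331 as deposited). The remaining tested UBA3 probe set lay at 123 ± 36.3 in adult and 133 ± 4.23 in prepubertal oocytes (SD, n = 3 each, log2 difference -0.13 ± 0.24, quantile-normalized -0.37), and a further pair stayed under a signal of 10 on every array.

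The E2 enzymes were the brightest group. Of 21 members with a mean signal over 1000, 12 were E2 probe sets, and 35 of 40 E2 probe sets could be tested (87.5%, against 71.8% of all members and 57.2% of all probe sets with a single symbol). Signals of different probe sets depend on their probes and do not rank transcript amounts. UBE2D2, an E2 that works with many ligases, had 9263, 8063 and 8455 in adult and 8190.4, 7023 and 7174 in prepubertal arrays. The ranges overlapped slightly, and the log2 difference was 0.20 ± 0.13 (fold 1.15). After quantile normalization it was 0.11, with all adult arrays above all prepubertal arrays. Its close paralog UBE2D3 read 6206, 4906 and 5072 in adult and 5689, 5075 and 4870.0 in prepubertal arrays (log2 difference 0.04 ± 0.15), with the groups mixed. After quantile normalization the UBE2D3 difference turned to -0.18, with all adult arrays below all prepubertal arrays. The coding sequences of this pair are alike, so probes could share signal between them. A further UBE2D2 probe set had a log2 difference of 0.14 ± 0.16, quantile-normalized -0.09, and another, dimmer one 0.37 ± 0.26, quantile-normalized 0.09, both with overlap. None of these probe sets passed the test in either setting.

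**Figure D2:**
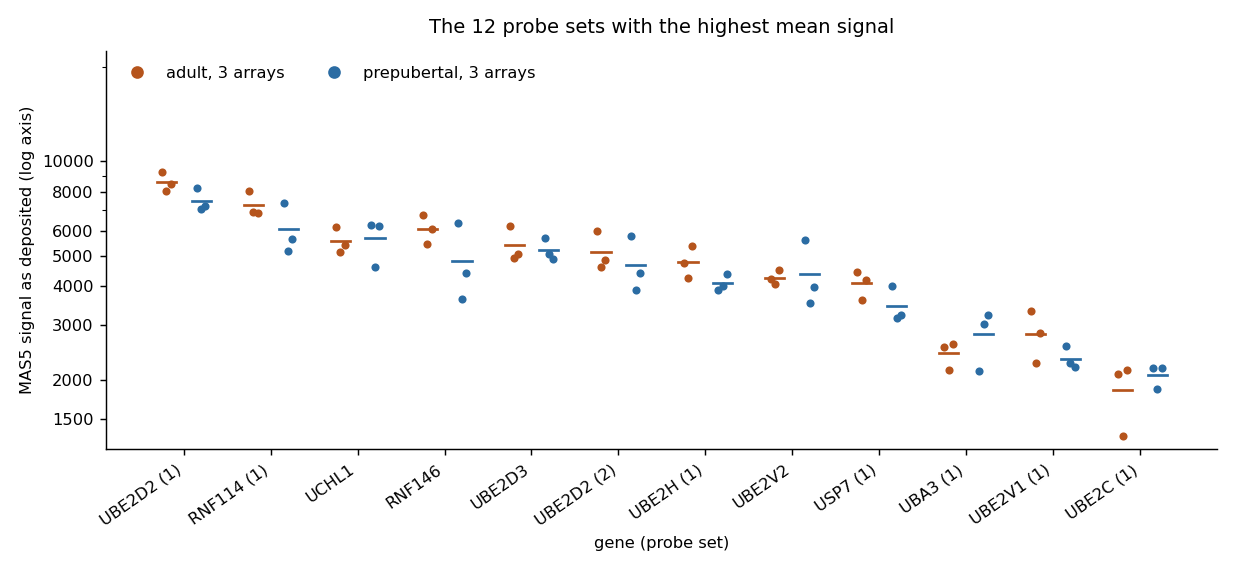
MAS5 signal as deposited (log axis) of the 12 members with the highest mean signal, with the 3 adult arrays left of the 3 prepubertal arrays for each and a bar at each mean. The number in brackets ranks the probe sets of a gene by signal. The arrays of the groups overlap for all 12 probe sets.

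UBE2O, a large enzyme with both E2 and E3 activity that in mammalian reticulocytes clears ribosomal proteins, had the lowest adjusted p of all members. Its signals were 474, 351 and 311 in adult and 184, 221 and 195 in prepubertal arrays. Every adult array lay above every prepubertal array, also after quantile normalization. The log2 difference was 0.85 ± 0.23, 1.80-fold, with a limma adjusted p of 0.104, and it was 0.57 after quantile normalization. It stayed between 0.68 and 0.98 when each array was left out in turn. The second UBE2O probe set was too dim to test, at 31.1, 3.38 and 6.57 in adult and 22.5, 18.8 and 10.2 in prepubertal arrays.

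UBE2C, the E2 of the anaphase-promoting complex, gave opposite signs on its 2 probe sets. The brighter read 2098, 1325 and 2160.0 in adult and 2183, 1869 and 2191 in prepubertal arrays, a log2 difference of -0.19 ± 0.20 with overlap, and -0.46 without overlap after quantile normalization. The dimmer read 356, 281 and 399.5 in adult and 187, 209 and 209 in prepubertal arrays. All adult arrays were above all prepubertal arrays there (log2 difference 0.72 ± 0.23, fold 1.65, limma adjusted p = 0.169). After quantile normalization it was 0.45, still without overlap.

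UBE2G2, an E2 of endoplasmic-reticulum-associated degradation, had 104, 42.0 and 44.1 in adult and 37.1, 39.9 and 12.6 in prepubertal arrays. The groups did not overlap, but adult replicate 1 stood far above the other adult arrays and prepubertal replicate 3 far below the other prepubertal arrays. Its log2 difference of 0.76 ± 0.31 had a limma adjusted p of 0.266 and lay between 0.43 and 0.95 with each array left out in turn. After quantile normalization it was 0.63, and the groups overlapped. Another 4 E2 genes were at an unadjusted p under 0.05 as deposited and not after quantile normalization, and are named here after their values were seen. UBE2N, which builds chains linked through lysine 63 together with UBE2V1 or UBE2V2, had 2448, 1952 and 2027 in adult and 2049, 1356 and 1461 in prepubertal arrays, with overlap and a log2 difference of 0.41 ± 0.19, quantile-normalized 0.13. UBE2Q1, whose loss lowers fertility in female mice, had log2 differences of 0.45 ± 0.20 and 0.34 ± 0.19 on its 2 probe sets, without overlap on either as deposited. After quantile normalization these were 0.17 and 0.04, with overlap on both. UBE2J2, another E2 of the endoplasmic reticulum, had a log2 difference of 0.54 ± 0.24, quantile-normalized 0.29, without overlap as deposited and with overlap after quantile normalization. For UBE2E2 it was 0.64 ± 0.28, quantile-normalized 0.54, with overlap in both settings. UBE2F and UBE2M, the E2 enzymes for NEDD8, had log2 differences of 0.46 ± 0.34 and 0.44 ± 0.30 (quantile-normalized 0.38 and 0.36) at mean signals near the lower limit for testing.

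**Figure D3:**
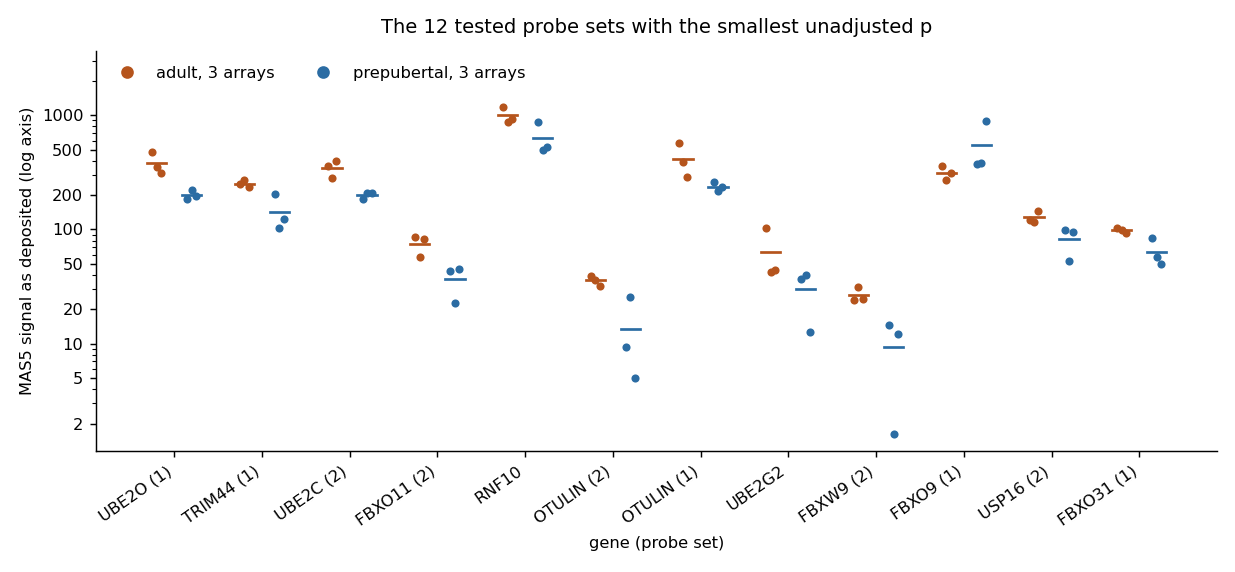
MAS5 signal as deposited (log axis) of the 12 tested members with the smallest unadjusted p, with the 3 adult arrays left of the 3 prepubertal arrays for each and a bar at each mean. Adult arrays are above all prepubertal arrays for 11 of them, and below for FBXO9, where prepubertal replicate 3 stands apart from the other arrays. None of the 12 passed an adjusted p of 0.05.

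Cullin-RING ligases are built on a cullin scaffold with a RING partner and an interchangeable substrate adaptor. CUL1, the scaffold of the F-box ligases, had 1753, 1377 and 1543 in adult and 1236, 1077 and 1141 in prepubertal arrays. The adult arrays lay above the prepubertal arrays in both settings, with a log2 difference of 0.43 ± 0.19 (1.34-fold, limma adjusted p = 0.301) and 0.15 after quantile normalization. CUL4A, the scaffold that works with DDB1, had 371, 235 and 250.5 in adult and 248, 156 and 197 in prepubertal arrays, with adult replicate 2 below the highest prepubertal array (log2 difference 0.47 ± 0.25, quantile-normalized 0.22). RNF7, a RING partner of cullins also called RBX2, had 1455, 1045 and 1016 in adult and 1207, 705 and 736 in prepubertal arrays, again with overlap (log2 difference 0.43 ± 0.23, quantile-normalized 0.13). The probe sets of CUL2, the scaffold used by VHL, and of SKP2, the adaptor that marks p27, were too dim to test. SKP2 was at 0.883, 0.898 and 2.39 in adult and 6.22, 5.73 and 9.74 in prepubertal arrays, all far under the limit for testing of about 16 signal units. CUL3, CUL4B, SKP1 and RBX1 were not analysed here.

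F-box proteins give the CUL1 ligases their substrates, and 26 of 39 F-box probe sets were tested. FBXL5, which degrades the iron regulator IRP2 when iron is plentiful, was the brightest, with 2176, 1736 and 2096 in adult and 2055, 1273 and 1682 in prepubertal arrays (log2 difference 0.28 ± 0.20, quantile-normalized 0.00). FBXO11, a ligase subunit that targets BCL6 in human cells, had 86.4, 56.9 and 81.9 in adult and 43.1, 22.6 and 44.9 in prepubertal arrays on its dimmer probe set. Adult arrays were all higher there in both settings (log2 difference 0.80 ± 0.25, quantile-normalized 0.67, limma adjusted p = 0.173 as deposited). The other FBXO11 probe set overlapped, at 66.3 ± 31.6 in adult and 67.9 ± 15.3 in prepubertal oocytes (SD, n = 3 each), with a log2 difference of -0.09 ± 0.28, quantile-normalized -0.27.

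FBXO9 was the only member below an unadjusted p of 0.05 as deposited with lower adult values. Its signals were 358, 269.5 and 310.0 in adult and 376, 381 and 885 in prepubertal arrays, so the size of the difference came mostly from prepubertal replicate 3. The log2 difference was -0.67 ± 0.28 (0.274 adjusted p in limma) and -0.94 after quantile normalization. As deposited it was -0.27 without prepubertal replicate 3. After quantile normalization it ran from -1.23 to -0.53 with each array left out in turn. The groups did not overlap in either setting. A second FBXO9 probe set was too dim to test, at 4.55, 5.23 and 8.54 in adult and 13.2, 16.3 and 10.4 in prepubertal arrays. FBXW9 had 24.1, 31.3 and 24.6 in adult and 14.6, 1.61 and 12.1 in prepubertal arrays on a probe set close to the limit for testing, without overlap in either setting (log2 difference 0.78 ± 0.32, quantile-normalized 0.71). A brighter FBXW9 probe set had a log2 difference of 0.03 ± 0.32, quantile-normalized -0.10, with overlap. FBXW7, which marks cyclin E and MYC, had 4 tested probe sets with log2 differences of 0.09, -0.07, 0.06 and 0.47 (quantile-normalized -0.10, -0.26, -0.06 and 0.38), the last of them just above the limit for testing with a mean signal of 17.0. The nearest member under that limit was an RNF121 probe set with a mean signal of 16.9. FBXO21, whose brightest probe set had 2048, 1302 and 1423 in adult and 1442, 1044 and 993 in prepubertal arrays, had a log2 difference there of 0.44 ± 0.21, quantile-normalized 0.17, with overlap. Its further tested probe sets had 0.38, -0.33, 0.42 and 0.31 (quantile-normalized 0.13, -0.49, 0.27 and 0.20), all with overlap.

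RNF proteins are ligases with a RING domain, and 30 of 41 probe sets were tested. RNF10, which in human cells ubiquitinates proteins of the small ribosomal subunit, had 1187, 880.0 and 927 in adult and 865, 496 and 528 in prepubertal arrays. The lowest adult array was just above the highest prepubertal array, prepubertal replicate 1. Its log2 difference was 0.68 ± 0.23 (1.61-fold, limma adjusted p = 0.197), and 0.41 after quantile normalization, also without overlap. RNF114 and RNF146 were the brightest RNF probe sets. RNF114 had 8050.2, 6890.0 and 6841 in adult and 7383, 5169.9 and 5628 in prepubertal arrays, with overlap (log2 difference 0.27 ± 0.15, quantile-normalized 0.11). On a dimmer RNF114 probe set the log2 difference was -0.20 ± 0.25, quantile-normalized -0.34, with overlap. RNF146, which recognises poly(ADP-ribose) and degrades axin, had 6751, 5439.7 and 6092 in adult and 6335, 3622 and 4403 in prepubertal arrays. Prepubertal replicate 1 was within the adult range and the other prepubertal arrays were below it (log2 difference 0.38 ± 0.17, quantile-normalized 0.16). As deposited it was 0.20 to 0.60 with each array left out. RNF128, a ligase best known from T-cell anergy, had 46.5, 38.9 and 49.5 in adult and 28.3, 23.3 and 25.8 in prepubertal arrays, without overlap in either setting (log2 difference 0.54 ± 0.25, quantile-normalized 0.43, limma adjusted p = 0.316 as deposited). RNF2, the ligase of polycomb complex 1 for histone H2A, had 114 ± 53.4 in adult and 104 ± 31.6 in prepubertal oocytes (SD, n = 3 each) and a log2 difference of 0.07 ± 0.27, quantile-normalized -0.14. As deposited 20 RNF probe sets were positive and 10 negative, and after quantile normalization 10 were positive and 20 negative.

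Of the TRIM proteins, a family named for its RING, B-box and coiled-coil domains, 8 of 14 probe sets were tested, and 7 of these were positive in both settings. TRIM44, which lacks the RING domain, had 251, 269 and 237 in adult and 202, 103 and 123 in prepubertal arrays. The adult arrays were close together and all above the prepubertal arrays, of which replicate 1 was the highest. The log2 difference was 0.81 ± 0.25 (1.75-fold, limma adjusted p = 0.160) and 0.58 after quantile normalization. A second TRIM44 probe set had 97.3, 37.0 and 61.0 in adult and 48.7, 32.9 and 31.8 in prepubertal arrays, with overlap and a log2 difference of 0.54 ± 0.27, quantile-normalized 0.40. TRIM13, a ligase anchored in the endoplasmic reticulum, had 285, 266 and 318 in adult and 251, 199 and 184 in prepubertal arrays, without overlap as deposited (log2 difference 0.43 ± 0.23, limma adjusted p = 0.376). After quantile normalization it was 0.18, with overlap. TRIM24, a chromatin reader, was too dim to test, at 13.8 ± 1.16 in adult and 15.6 ± 4.55 in prepubertal oocytes (SD, n = 3 each). Among the E3 enzymes of HECT or U-box type, UBE3A, the ligase lost in Angelman syndrome, had a log2 difference of -0.02 ± 0.27, UBE4B -0.14 ± 0.27 and UBE3D 0.27 ± 0.26, all with overlap. After quantile normalization these were -0.27, -0.35 and 0.13.

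Among the deubiquitinases, UCHL1, an enzyme abundant in neurons and oocytes, was the brightest. It had 6178, 5143 and 5383 in adult and 6271, 4583 and 6215 in prepubertal arrays, and the groups were mixed. The log2 difference was -0.02 ± 0.15, and -0.21 once quantile normalized, where the adult arrays lay below the prepubertal arrays. USP7, which removes ubiquitin from MDM2 and p53, had 4443, 3604 and 4189 in adult and 3991, 3151 and 3227 in prepubertal arrays (log2 difference 0.24 ± 0.16, quantile-normalized -0.03), with overlap. UCHL3, a relative of UCHL1, had a log2 difference of 0.17 ± 0.25, quantile-normalized -0.11.

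OTULIN, which cuts linear ubiquitin chains, was at an unadjusted p under 0.05 on both of its probe sets and in both settings. The brighter had 569, 386 and 287 in adult and 259, 218 and 234 in prepubertal arrays, and the dimmer 39.2, 36.1 and 32.0 in adult and 9.43, 25.6 and 5.05 in prepubertal arrays. As deposited, on both, every adult array lay above every prepubertal array. The log2 differences were 0.72 ± 0.25 and 0.88 ± 0.30, with limma adjusted p of 0.205 and 0.203, and after quantile normalization 0.44, with overlap, and 0.79, without. Over the arrays left out in turn they ran from 0.47 to 0.94 and from 0.67 to 1.16. OTUB1, which favours chains linked through lysine 48, had a log2 difference of -0.25 ± 0.31, quantile-normalized -0.34. OTUD5 had 0.35 ± 0.23 and 0.01 ± 0.23 on its 2 probe sets (quantile-normalized 0.09 and -0.15).

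USP16, a deubiquitinase of histone H2A, had 122, 116 and 146 in adult and 98.3, 53.3 and 94.4 in prepubertal arrays on 1 of its 3 probe sets, without overlap as deposited (log2 difference 0.58 ± 0.24, limma adjusted p = 0.278). After quantile normalization it was 0.40, with overlap. The brightest USP16 probe set had a log2 difference of 0.07 ± 0.24, quantile-normalized -0.20, with overlap. USP2, a cysteine protease tied to the circadian clock, had 607, 412 and 529 in adult and 432, 269 and 359.9 in prepubertal arrays, with adult replicate 2 below the highest prepubertal array (log2 difference 0.53 ± 0.24, quantile-normalized 0.26). After quantile normalization the USP2 groups did not overlap. USP9X, which protects many substrates from degradation, had log2 differences of -0.21 ± 0.25 and 0.31 ± 0.29 on its 2 probe sets (quantile-normalized -0.47 and 0.18). For USP21 the log2 difference was 0.35 ± 0.23, quantile-normalized 0.09, and for USP28 0.26 ± 0.22, quantile-normalized -0.03.

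Probe sets of 1 gene did not always have the same sign. Of 29 genes with several tested probe sets, 14 had 1 sign on all of them as deposited and 10 after quantile normalization. The same share over all genes was not counted, so these counts do not set the families apart. In most genes with mixed signs, the differences of 1 sign were smaller than their standard errors, so that sign is uncertain. An example is the brighter FBXO11 probe set (-0.09 ± 0.28). For UBE2T both differences exceeded their standard errors (0.36 ± 0.23 and -0.58 ± 0.34). A common factor on the signals of an array cancels in the ratio of 2 probe sets on it, but only in part for dim probe sets once 16 is added. The log2 ratio of the brighter to the dimmer was compared for all 55 pairs, a comparison added after the data were seen. The groups did not overlap for 9 pairs (16.4%), the same share as the 16.4% of 1510 pairs over all genes. With nothing added, a setting chosen after the data were seen, 9 pairs again did not overlap, 8 of them the same, against 15.5% over all genes. For UBE2C the ratio was 2.51, 2.17 and 2.39 in adult and 3.44, 3.07 and 3.30 in prepubertal arrays, a difference of -0.91, and of -0.96 with nothing added. Its exact permutation p was 0.1, the smallest that 3 against 3 arrays allow, and 0.611 adjusted over the 55 pairs. The other pairs without overlap were of FBXO21, with 2 pairs, UBA3, FBXW7, RNF114, UBE2W, UBE2V1 and TRIM52, of which that of UBE2V1 overlapped with nothing added. A ratio cannot tell which of its probe sets differs between the groups.

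**Figure D4:**
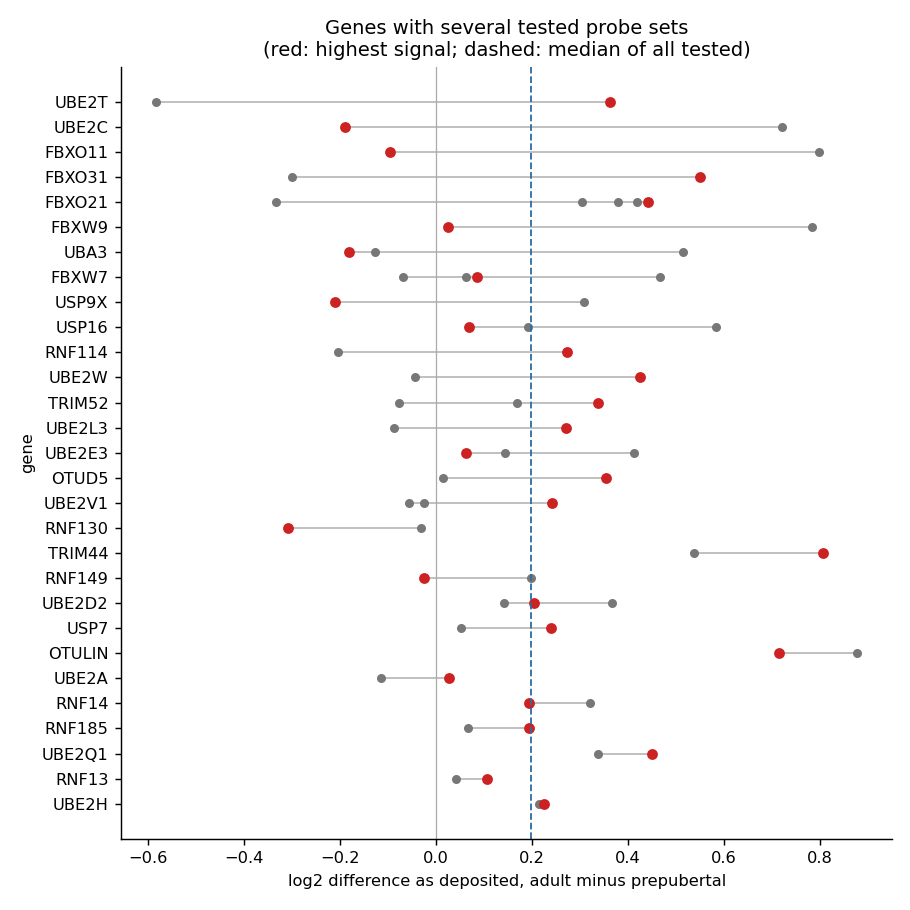
Log2 difference as deposited, adult minus prepubertal, of every tested probe set for the 29 genes with more than 1, with the probe set of highest signal in red and the median of all tested probe sets dashed. The genes with the widest disagreement are at the top, where UBE2T and UBE2C have probe sets on both sides of 0, and both OTULIN and both TRIM44 probe sets lie to the right of the dashed line.

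**Figure D5:**
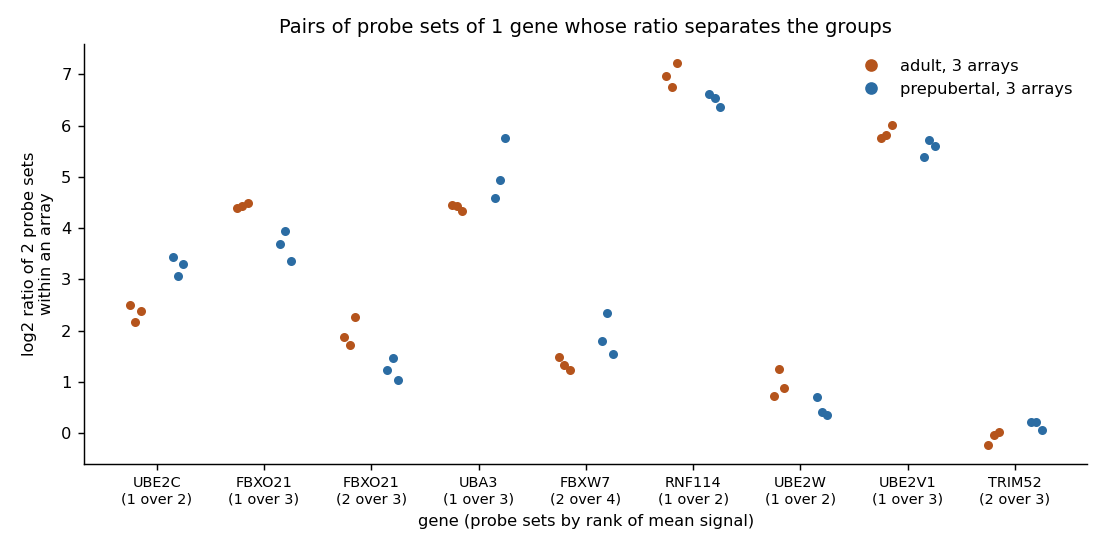
Log2 ratio of 2 probe sets of the same gene within each array (on signal plus 16), with the 3 adult arrays left of the 3 prepubertal arrays, for the 9 pairs whose groups do not overlap. Numbers in brackets rank the probe sets of the gene by signal, and UBE2C is at 2.17 to 2.51 in adult and 3.07 to 3.44 in prepubertal arrays.

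The 51 untested probe sets had mean signals of 1.25 to 17.1, and 23 genes had no tested probe set. Beside CUL2, SKP2 and TRIM24 these included the deubiquitinases USP3, USP4, USP11, USP30 and USP36, the F-box genes FBXO2, FBXO3, FBXO34, FBXO44 and FBXW5, and UBE2D4, UBE2QL1 and UBE4A. The others were RNF135, RNF207, TRIM15, TRIM26, TRIM27, TRIM29 and TRIM55. At these signals neither a difference nor its absence can be read.

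The ubiquitin pathway beyond these families was followed through 81 listed genes, of which 45 had probe sets, with 45 of 64 probe sets tested. In this list 1 probe set passed the adjusted threshold, higher in adult oocytes, and 0 passed lower (0.475% of all tested probe sets passed). It belongs to ANAPC4, a scaffold subunit of the anaphase-promoting complex, with 946, 798 and 758 in adult and 400, 425 and 458 in prepubertal arrays. All adult arrays were far above the prepubertal arrays, and ANAPC4 rose 1.91-fold in adult oocytes (log2 difference 0.93 ± 0.21, limma adjusted p = 0.0466). After quantile normalization the difference was 0.65, with an adjusted p of 0.120. The adjusted p was 0.247, 0.108 and 0.118 without adult replicates 1, 2 and 3, and 0.0155, 0.134 and 0.155 without prepubertal replicates 1, 2 and 3, and over all alternatives it ran from 0.00364 to 0.438. At an unadjusted p under 0.05, 6 of the 45 were higher as deposited and 0 lower (13.6% and 1.14% of all tested probe sets): ANAPC4, 2 probe sets of ANAPC5, CDC20, the adaptor SPOP and the SUMO ligase PIAS1. After quantile normalization 2 were higher, ANAPC4 and SPOP, and 2 lower, the cullin regulators COPS4 and COPS5 (5.81% and 5.05% of all tested probe sets). SPOP had a log2 difference of 0.78 as deposited and 0.62 quantile-normalized, COPS4 -0.15 and -0.43, and COPS5 -0.37 and -0.53. CDC20, which activates the complex, had 509, 360 and 304 in adult and 343, 199 and 233 in prepubertal arrays, with overlap (log2 difference 0.57 ± 0.25, quantile-normalized 0.30, limma adjusted p = 0.301 as deposited). UBB, a polyubiquitin gene that supplies ubiquitin itself, had 7391, 7290 and 7255 in adult and 8065, 6766 and 7224 in prepubertal arrays, a log2 difference of -0.0040, and of -0.12 once quantile normalized. The list had a median difference of 0.21, and of 0.05 once quantile normalized, against 0.20 and 0.01 for all tested probe sets.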

How the data were processed

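Poly(A) RNA of mature oocytes was hybridized to 6 Affymetrix porcine arrays after amplification, per the labels' protocols. The authors deposited a linear MAS5 signal intensity for each probe set on each array, and MAS5 is named in the submitters' processing notes. The MAS5 version and target level are not given in the sources. No control probe set (124 of 24123) was kept.

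Under R 4.3.3, limma 3.58.1 (lmFit and trended eBayes) was fitted to log2(signal + 16), which damps noise near background and understates folds of dim genes. A probe set was tested when its mean log2 over the 6 arrays reached the median, with p-values adjusted over all 12000, 2-sided. The fit was run on simulated data with independent noise and no shift between arrays. That run does not cover the differences in array level seen here. Quantile normalization over the 23999 remaining probe sets was run beside it, since the design had assumed a common array level. The number of arrays limits the precision.

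Symbols came from the platform annotation. Of the 181 members, 172 were found in RefSeq's gene table (assembly Sscrofa11.1) by Entrez identifier, and their current symbols were the same. A further 7 probe sets with several symbols were left out. Genes were sorted by symbol, so RNF7 stands with the RNF class.

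In each class the rule for named genes took the 3 brightest probe sets, the 3 genes with the smallest unadjusted p, their further probe sets and a list of 31 genes, of which 15 had probe sets. Genes named beyond it were chosen after their values were seen. The members and lists were chosen with earlier results of these data known. Marker sums, array levels and probe set ratios were compared with exact permutation tests. The alternatives were array weights, a replicate block, other normalizations, filters, constants and variance models, 1 probe set per gene, and each array left out.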

Additional observations from a re-analysis of the deposited data

How the results depend on the processing

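Among the alternatives, the count of 0 members past the adjusted threshold became 14 with array weights (12 higher in adult, 2 lower) and 13 with the replicate number as a block (13 higher), and was 0 to 5 when each array was left out in turn. After quantile normalization with each array left out, settings added after the data were seen, it was 0 to 2. The members at an unadjusted p under 0.05 numbered 13 with median centring, 43 with array weights, 42 with the replicate block and 12 to 35 with each array left out, against 23. Median centring called 11.1% of all tested probe sets so, array weights 28.9% and the block 23.8%, against 33.1% of members with weights and 32.3% with the block. With quantile normalization they numbered 16, 10 and 15 without adult replicates 1, 2 and 3, and 22, 14 and 13 without prepubertal replicates 1, 2 and 3, beside 7.76% to 15.6% of all tested probe sets. The count over all tested probe sets (57) moved to 15 with 1 added, 1 without a filter, 141 with testing limited to the brightest probe sets, 14 with quantile normalization, 20 with a common trimmed mean, 7 with median centring, 1 without a variance trend and 1259 with array weights. It was 918 with the replicate block, 33 with the block and quantile normalization, 132 at an adjusted p under 0.1, 3 to 658 with each array left out, and, with quantile normalization as well, 2, 0 and 4 without adult replicates 1, 2 and 3 and 213, 6 and 3 without prepubertal replicates 1, 2 and 3. The array whose absence gave the highest counts was prepubertal replicate 1 in both settings. Same-numbered arrays of the groups deviated together at r = 0.11, 0.0584 and 0.0294 as deposited, against -0.0776 to 0.0245 for differently numbered arrays. After quantile normalization the values were 0.082, 0.0179 and 0.0283, against -0.0583 to 0.0351. The main fit did not pair the arrays, and whether the numbers mark pairs is not known.

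The E1 median (-0.10) was -0.32 with quantile normalization, with or without the replicate block, and -0.33 with a common trimmed mean. The E2 median (0.23) was 0.0231 and -0.0344 under these settings, and the deubiquitinase median (0.18) was -0.0237 and -0.044. The median of all members (0.19) was -0.0422 with a common trimmed mean. The E3 median (0.19) also turned negative, at -0.0441 with quantile normalization and -0.0481 with a common trimmed mean. Its move was less than its spread between arrays, which at 0.271 was wider than that of E2 (0.134) and deubiquitinases (0.124). The cause was not tested, beyond that these scalings remove the difference in array level. Of 62 named probe sets tested, 12 changed sign with quantile normalization, 13 with a common trimmed mean, 7 with median centring and 6 with array weights. Leaving out adult replicates 1, 2 and 3 changed the sign of 9, 8 and 4, and leaving out prepubertal replicates 1, 2 and 3 that of 4, 5 and 7. With 3 arrays a group the median standard error was 0.24 on the log2 scale. Differences well above that size also failed the adjusted threshold, such as 0.85 for UBE2O (limma adjusted p = 0.104) and the largest among members, 0.88. The absence of calls does not show that differences of such sizes are absent.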
